A study of Danio rerio with 24 samples.

Results

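The comparison described here sets regenerating caudal fins of metabolic memory zebrafish against those of control zebrafish at 48 h after amputation. It rests on the 6 arrays labelled with that time, 3 of memory fins and 3 of control fins, out of 24 arrays in all, and on the 10140 of 15502 probe sets that reached a log2 signal of 4 on at least 3 of the 24 arrays. All fish were wild-type zebrafish (Danio rerio) kept at standard laboratory conditions. Memory fish had been injected with streptozocin, which kills the beta cells of the pancreas that make insulin, at 350 mg/kg on 5 days, and the fin was cut after 60 further days free of the drug. The treatment description gives control fish the same volume of citrate buffer, while the design text calls them untreated. The other times were 0, 12 and 24 h, and age, sex and time of day were not given in the sources used here. The labels speak of 15 fins and of triplicate samples for each time, without saying whether replicates were separate fish, so that p values measure the spread between these samples, which may be technical.

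The caudal fin regrows after it is cut. A wound epidermis covers the stump within the first day, a mass of dividing cells called the blastema forms beneath it, and outgrowth follows. Wounding also switches on immediate early genes, such as those of the AP-1 and Krüppel-like transcription factors, whose transcripts are made within minutes of a stimulus and are usually short-lived. Metabolic memory means tissue changes that persist once high blood glucose has ended, and in zebrafish with that history fin regeneration is known to be impaired.

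At 48 h a share of the genes that respond to wounding and stress had lower signals in memory fins, and a smaller share of the genes that build ribosomes had higher signals. Of 49 measured injury-induced transcription and stress factors, 16 were called lower and 0 higher. The gene lists were chosen with earlier results of these data known. fosl1b and klf3, which are related to members of that list but not on it, were called higher. Of 107 genes of ribosome biogenesis, 14 were called higher and 0 lower. Among all 6451 genes 2.71% were called lower and 2.82% higher. On leaving out 1 array the count fell as low as 4 for the injury-induced factors and 3 for ribosome biogenesis. Of 41 genes of glycolysis and hypoxia, 7 were called higher, 2 lower and 32 not called, and without control replicate 1 there were 3 called higher. Called means a Benjamini-Hochberg adjusted p under 0.05 in a limma fit over all 24 arrays, with a difference given as memory minus control on the log2 scale, where 1 is 2-fold.

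Over all probe sets, 279 were called higher in memory fins, which is 2.75% of those tested, and 298 were called lower, which is 2.94%. At an unadjusted p under 0.05 there were 2150. Counted as genes with 1 symbol each, 182 were higher (2.82%) and 175 lower (2.71%) of 6451. The called probe sets had a median size of 0.64 among those higher and 0.78 among those lower, and 41 and 78 of them differed at least 2-fold. The 3 arrays of one group lay wholly above the 3 of the other for 273 of the 279 and 293 of the 298. Among all genes this also held for 1190 higher in memory fins (18.4%) and 895 lower (13.9%). Hybridisation controls averaged 9.69 in control and 9.72 in memory arrays, and the 3' probe set of gapdh exceeded its 5' probe set by 1.19 to 1.36 on the 6 arrays. Arrays correlated at 0.989 to 0.994 within the control group, 0.991 to 0.994 within the memory group and 0.979 to 0.990 between them. The counts of calls depended on single arrays. Without control replicate 1 there were 69 higher and 116 lower, without control replicate 2 there were 104 and 122, without memory replicate 2 there were 68 and 110, and without memory replicate 3 there were 139 and 131. Of 77 higher and 61 lower genes that the naming rule took from the calls, 17 and 15 kept their call whichever of the 6 arrays was left out. These 32 are among 101 called genes named below in the Results, with klf3 not counted. The calls of the other 69 and of klf3 ended on leaving out 1 array or another.

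None of the marker genes of cell types of the fin was called. They covered epidermis, bone, fibroblast and blastema, leukocyte, blood, vessel, nerve, pigment and other cells. The summed level of the 8 epidermal markers was 16.02 to 16.15 in control and 16.10 to 16.19 in memory arrays on the log2 scale. The 6 markers of fibroblast and blastema summed to 15.31 to 15.54 in control and 15.15 to 15.35 in memory arrays. Those of leukocytes summed to 9.17 to 9.49 and 9.41 to 9.68, a median difference of 0.23 over 6 markers. The 5 osteoblast markers summed to 13.77 to 13.94 in control and to 13.54 to 13.72 in memory arrays, and the 3 nerve and Schwann cell markers to 4.91 to 5.08 and 5.16 to 5.46, so that both sums separated the groups. The part of these cell types in the results below was not tested. The osteoblast markers went both ways, with a median difference of -0.02. The brightest, col10a1a, differed by -0.23, ifitm5 by -0.51 and runx2a by -0.02, while spp1 differed by 0.53 (adjusted p = 0.0525) and runx2b by 0.07. The nerve and Schwann cell markers were dim, with control means of 3.67 for gap43, 3.36 for sox10 and 3.09 for mbpa. Of these gap43 differed by 0.69 (adjusted p = 0.0806), sox10 by 0.03 and mbpa by -0.07. The 1 red blood cell marker measured spread from 5.80 to 7.28 in control and from 6.37 to 9.03 in memory arrays. The 5 skeletal muscle markers and the 2 lymphocyte markers on the array were below a log2 signal of 4 on all 6 arrays. In pieces of whole fin, fewer cells of a type and less RNA per cell cannot be told apart.

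Krüppel-like factors are zinc finger regulators that in mammals include early response genes. Of these, klf2a, klf4 and klf2b were called lower in memory fins, while klf3 was called higher. klf3, which is not on the list of injury-induced factors, differed by 1.54 (adjusted p = 0.0317). Its call ended without any 1 of 5 arrays. Of the list's members not called, klf11a stood at 1.09, klf9 at 0.08 and klf6a at -0.36. klf2a had log2 signals of 11.84, 12.03 and 11.79 on the control arrays and 10.11, 9.68 and 9.35 on the memory arrays. The groups lay far apart and the control arrays were almost level. It was lower by 2.17 on the log2 scale, as -2.17 ± 0.26 (SE, n = 3 arrays per group, as throughout), a 4.50-fold difference with an adjusted p of 0.000228. klf4, a factor of the skin barrier in the mouse, read 7.09, 5.93 and 6.31 in control and 4.56, 3.75 and 3.31 in memory fins. All memory arrays were below all control arrays, and 2 of them were under the level of 4 asked by the filter. No detection call was used and the authors' processing pulls weak signals to a floor, so that the size of a difference is uncertain wherever a group lies below 4. Its difference was -2.57 ± 0.46 (adjusted p = 0.00314). klf2b, the paralogue of klf2a, differed in the same direction by -1.24 ± 0.29 (adjusted p = 0.0154), but the call ended without control replicate 1 (adjusted p = 0.103), memory replicate 1 (0.0635) or memory replicate 2 (0.0609).

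AP-1 factors are dimers of Fos, Jun and related proteins, and fosab, jdp2b, jun and atf3 were called lower in memory fins. fosab, a zebrafish c-Fos gene, stood at 13.60, 12.63 and 12.31 in control and at 10.44, 10.29 and 10.93 in memory fins. No array of either group reached into the other, with control replicate 1 the highest. It differed by -2.30 ± 0.55 (adjusted p = 0.0178), and the 3 other probe sets of the gene by -2.70 ± 0.61, -3.03 ± 0.75 and -2.92 ± 0.70 (adjusted p = 0.0137, 0.0216 and 0.0192). jdp2b, which encodes a Jun dimerisation protein, gave the largest fall of any gene named by the rule, with 12.37, 11.38 and 9.99 in control and 7.96, 7.53 and 8.25 in memory fins. The control arrays were widely spread and still did not meet the memory arrays. Its difference was -3.34 ± 0.74 (adjusted p = 0.0124). jun differed by -1.34 ± 0.36 (adjusted p = 0.0346) and atf3, an AP-1 partner induced by stress, by -1.91 ± 0.53 (adjusted p = 0.0368). The calls of fosab and jdp2b ended without 2 of the arrays and those of jun and atf3 without 5. Without control replicate 1 the adjusted p was 0.103 for fosab, 0.0796 for jdp2b, 0.202 for jun and 0.212 for atf3, and without memory replicate 2 it was 0.0839, 0.0631, 0.112 and 0.102. Among members not called, junba stood at -0.02 ± 0.19 (adjusted p = 0.974) and junbb at -0.69 ± 0.36 (adjusted p = 0.29).

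A gene of the Fra-1 type in the Fos family, fosl1b, which is not on the list of injury-induced factors, was higher in memory fins. Control arrays read 3.19, 3.50 and 3.49 and memory arrays 4.74, 5.09 and 4.57. The control arrays all lay below the level of 4 and the memory arrays all above it. The fitted difference was 1.41 ± 0.15 (adjusted p = 5.29e-05), with its size uncertain because the control arrays are so dim. fosl1b had been at 7.02 in control and 6.58 in memory fins at 12 h, and at 6.28 and 6.40 at 24 h. At 48 h the means were 3.40 and 4.80.

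**Figure D1:**
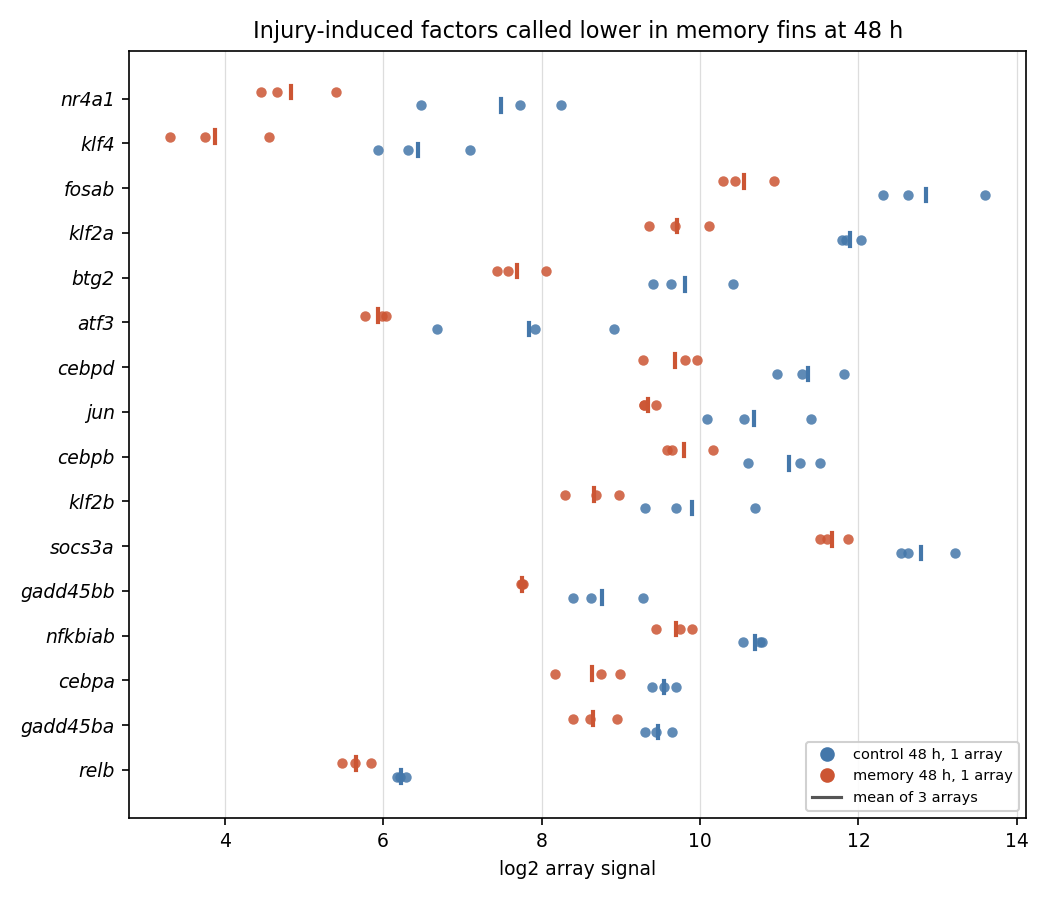
Log2 array signals of the 16 injury-induced factors called lower in memory fins at 48 h, ordered by the size of the difference, with 1 point per array (control in blue, memory in red) and a bar at the mean of 3. Every memory array lies below every control array for each of the 16 genes, from nr4a1 at -2.64 to relb at -0.57. The genes were chosen by their calls, and 293 of 298 probe sets called lower lay apart in this way. Among all genes it held for 13.9%.

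The list of injury-induced factors, which does not hold jdp2b, had other calls that included nuclear receptor, C/EBP and NF-kappaB genes. nr4a1, an orphan nuclear receptor that is an immediate early gene in mammals, had 8.24, 7.73 and 6.48 in control and 5.40, 4.46 and 4.66 in memory fins. It differed by -2.64 ± 0.56 (adjusted p = 0.00913), and its adjusted p was 0.0613 without control replicate 1 and 0.0533 without memory replicate 2. cebpd, a C/EBP factor of acute inflammation, read 11.82, 11.29 and 10.97 against 9.96, 9.81 and 9.28. It was lower by 1.68 on the log2 scale (-1.68 ± 0.34, adjusted p = 0.00687) and kept its call without any one array. The second probe set of cebpd was dim, with means of 3.42 in control and 3.33 in memory fins. It differed by -0.09 ± 0.16 (adjusted p = 0.81). cebpb differed by -1.33 ± 0.32 (adjusted p = 0.019) and cebpa by -0.91 ± 0.27 (adjusted p = 0.048). Of inhibitors of cytokine and NF-kappaB signals, socs3a differed by -1.13 ± 0.25 (adjusted p = 0.0129) and nfkbiab, an I-kappaB gene, by -0.99 ± 0.24 (adjusted p = 0.0184). The NF-kappaB subunit gene relb differed by -0.57 ± 0.16 (adjusted p = 0.0379). The stress genes gadd45bb and gadd45ba differed by -1.01 ± 0.24 and -0.82 ± 0.19 (adjusted p = 0.0152 and 0.0137). Each of these last 7 calls ended when 1 array was left out, with the highest adjusted p between 0.0768 for gadd45ba and 0.192 for cebpa.

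Over the whole list of 49 injury-induced factors the median difference was -0.57, against 0.02 over all 6451 genes, and 13 members (26.5%) had a positive difference, against 55.1% of all genes. From 0 to 48 h the median change of the members was 0.07 in control and -0.53 in memory fins. Over all genes it was 0.16 and 0.18. The list as a whole thus rose no more than all genes in either arm. Single arrays stood apart in it. Relative to the mean of the 6 arrays, the median member lay at 0.56, 0.28 and 0.01 on control replicates 1, 2 and 3 and at -0.12, -0.30 and -0.34 on the memory replicates, so that control replicate 1 had the highest signals of these genes. The part of that array in the result was measured by leaving it out. The list then had 4 members called lower and a median of -0.35, and it had 10 and -0.43 without control replicate 2, 20 and -0.70 without control replicate 3, 4 and -0.59 without memory replicate 2, and 7 and -0.57 without memory replicate 3. The 4 genes called without control replicate 1 were klf2a, klf4, cebpd and btg2, and so were the 4 called without memory replicate 2.

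Of 40 genes on the p53 and DNA damage list, which shares btg2 with the injury list, 5 were called lower, 0 higher and 35 not called. The median was -0.07 and 16 had a positive difference. ccng2, the gene of cyclin G2, which holds back the cell cycle in mammals, had 11.53, 11.56 and 11.53 in control and 10.02, 9.84 and 9.65 in memory fins. The control arrays were almost equal and all memory arrays were lower. It differed by -1.70 ± 0.22 (adjusted p = 0.000229), and its second probe set by -1.84 ± 0.30 (adjusted p = 0.00156). btg2, an antiproliferative p53 target in mammals, read 10.41, 9.63 and 9.40 against 8.05, 7.57 and 7.44. The groups did not overlap, and the difference was -2.13 ± 0.42 (adjusted p = 0.0063). The polo-like kinase genes plk2b and plk3, which respond to stress in mammals, differed by -1.74 ± 0.42 and -1.20 ± 0.27 (adjusted p = 0.0198 and 0.0121), and mcl1b, a survival gene of the Bcl-2 family, by -0.44 ± 0.12 (adjusted p = 0.0304). The calls of the last 3 ended without control replicate 1 (adjusted p = 0.128, 0.0638 and 0.0761) and without memory replicate 3 (0.0677, 0.0506 and 0.153). The list had 2 members called lower without either of those arrays and 3 without control replicate 2 or memory replicate 2.

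Further genes were called from several lists or from none. ccn1, a matrix-bound signal protein whose mammalian gene answers to stretch and injury, stood at 11.99, 11.04 and 10.26 in control and at 8.71, 8.46 and 8.40 in memory fins. The memory arrays were tightly grouped below all control arrays. It was 5.95-fold lower, a difference of -2.57 ± 0.40 (adjusted p = 0.00128), and its second probe set also differed by -2.57 ± 0.45 (adjusted p = 0.00247). ccn2a, of the same family, read 9.57, 9.14 and 8.77 against 7.90, 7.39 and 7.05, without overlap (-1.71 ± 0.32, adjusted p = 0.00437). ptgs2a, a cyclooxygenase gene of prostaglandin synthesis, read 11.13, 10.47 and 9.96 against 8.98, 8.90 and 8.95, a difference of -1.58 ± 0.34 (adjusted p = 0.00973) that had an adjusted p of 0.0698 without control replicate 1. Of 23 matrix glycoprotein genes ccn1 and ccn2a were the 2 called. Of 23 macrophage and leukocyte genes ptgs2a was called lower and the chemokine gene cxcl12b higher (0.68 ± 0.18, adjusted p = 0.0301, a call that ended without any 1 of 5 arrays and had an adjusted p of 0.168 without memory replicate 2). irg1l, related to the enzyme that makes itaconate in mammalian macrophages, had 7.66, 7.82 and 8.81 in control and 5.31, 4.86 and 4.59 in memory fins. Its difference of -3.18 ± 0.81 (adjusted p = 0.0241) lost its call without control replicate 1, 2 or 3 (adjusted p = 0.0621, 0.068 and 0.0715) and without memory replicate 2 or 3 (0.0891 and 0.0808). sik1, a salt-inducible kinase gene, differed by -1.96 ± 0.48 (adjusted p = 0.0209, a call that ended without any 1 of 4 arrays, with 0.135 without control replicate 1). tsc22d3, a leucine zipper gene induced by glucocorticoids in mammals, read 10.28, 9.98 and 9.92 against 9.23, 9.16 and 9.09. It differed by -0.90 ± 0.15 (adjusted p = 0.00178) and kept its call without any one array.

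Genes of the regeneration signals were called singly rather than as whole pathways. On the Wnt list of 22 genes wnt11, a ligand of the non-canonical branch, was called lower and the receptor gene fzd9b higher (0.59 ± 0.14, adjusted p = 0.0213, a call that ended without any 1 of 3 arrays). wnt11 read 5.22, 4.25 and 4.34 in control and 3.45, 3.36 and 3.44 in memory fins, where all arrays were below 4. The difference was -1.19 ± 0.18 (adjusted p = 0.00104). On the list of 33 Bmp and Tgf-beta genes the single call was id2b, an inhibitor of helix-loop-helix factors and a Bmp target, with 8.27, 8.61 and 7.78 in control and 6.10, 5.74 and 6.44 in memory fins. The groups were well apart, with a difference of -2.13 ± 0.34 (adjusted p = 0.00156) and, for its second probe set, -2.22 ± 0.32 (adjusted p = 0.000828). bmper, which encodes a secreted protein that binds Bmps, read 5.11, 5.04 and 5.01 in control and 4.37, 4.01 and 4.39 in memory fins. It differed by -0.80 ± 0.11 (adjusted p = 0.000482) without overlap. The calls of wnt11, id2b and bmper held whichever array was left out.

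Of 21 genes of the Fgf pathway 4 were called lower and 0 higher, with a median of -0.07. They were the receptor gene fgfr3 (-1.15 ± 0.27, adjusted p = 0.0171) and the MAP kinase phosphatase genes dusp1 (-1.77 ± 0.49, adjusted p = 0.0386), dusp4 (-0.78 ± 0.23, adjusted p = 0.0476) and dusp6 (-0.58 ± 0.13, adjusted p = 0.0136). None of these was called without control replicate 1 (adjusted p = 0.0751, 0.229, 0.138 and 0.0921) or memory replicate 3 (0.0663, 0.0863, 0.135 and 0.0506), and 1 was without control replicate 2 or memory replicate 2. The second probe set of dusp6 differed by -0.22 ± 0.17 (adjusted p = 0.475). With the mean of its probe sets the call of dusp6 ended (-0.40, adjusted p = 0.0611). On the retinoic acid list of 11 genes, aldh1a2, whose enzyme makes retinoic acid, was called higher (0.56 ± 0.14, adjusted p = 0.0242) and cyp26a1, whose enzyme breaks it down, lower (-0.90 ± 0.23, adjusted p = 0.0235). The arrays of aldh1a2 overlapped between the groups, and its call ended without any 1 of 4 arrays (adjusted p up to 0.107) and in a fit on only the groups compared (0.0985). The call of cyp26a1 ended on leaving out any 1 of the 6 arrays, with an adjusted p between 0.0536 and 0.0743.

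Notch genes went both ways. Of 13 measured, 3 were called higher and 1 lower, with a median of 0.16. The ligand gene jag1a read 8.54, 9.01 and 9.14 in control and 8.18, 7.23 and 7.10 in memory fins, a difference of -1.39 ± 0.38 (adjusted p = 0.0351). The fringe gene lfng, whose enzyme modifies Notch receptors, read 9.58, 9.33 and 9.37 against 10.23, 10.36 and 10.52, higher by 0.94 ± 0.21 (adjusted p = 0.0109). Of the hairy-related repressor genes, her9 read 8.09, 8.07 and 8.37 against 9.46, 9.22 and 9.09. The difference of her9 was 1.08 ± 0.24 (adjusted p = 0.0124) and that of hey1 1.26 ± 0.36 (adjusted p = 0.0436). All 4 genes separated the groups, but each call was lost without control replicate 2, with an adjusted p of 0.117 for jag1a, 0.0518 for lfng, 0.0546 for her9 and 0.162 for hey1. The calls of jag1a and hey1 ended without any 1 of 5 arrays and those of lfng and her9 without 2. Patterning factors gave 3 calls higher and 1 lower of 29 genes, namely irx5a (1.24 ± 0.36, adjusted p = 0.0459), irx3a (1.17 ± 0.34, adjusted p = 0.0484) and the T-box gene tbx2b (0.96 ± 0.21, adjusted p = 0.00973) against snai1a (-0.56 ± 0.13, adjusted p = 0.0151). Without control replicate 2 all 4 calls ended (adjusted p = 0.171, 0.19, 0.0569 and 0.0766). That of irx5a ended on leaving out any 1 of the 6 arrays, that of irx3a without 5 and those of tbx2b and snai1a without 2.

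The products of ribosome biogenesis genes cut, modify and assemble ribosomal RNA in the nucleolus. Of 107 measured, 14 were called higher, and the median of the list was 0.29, against 0.02 over all genes. A positive difference was found for 100 of them (93.5%), against 55.1% of all genes. Such a share was not particular to this list, as the other lists given below show. noc2l, a gene of a nucleolar complex for the large subunit, read 6.94, 7.04 and 7.12 in control and 7.53, 7.49 and 7.65 in memory fins. The 2 sets of arrays were narrow and apart, with a difference of 0.52 ± 0.09 (adjusted p = 0.00281). dkc1, the gene of the pseudouridine synthase dyskerin, read 7.87, 8.05 and 8.11 against 8.63, 8.57 and 8.59, a difference of 0.59 ± 0.12 (adjusted p = 0.00738). riok1, a kinase gene of small subunit maturation, gave the largest difference of the list's calls, with 6.41, 6.69 and 6.97 against 7.59, 7.64 and 7.52 (0.90 ± 0.18, adjusted p = 0.0078, and 0.054 without control replicate 1).

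The other 11 called members were nip7, rsl1d1, utp4, aatf, nop2, wdr12, noc4l, surf6, imp4, nsun5 and rrp9, from 0.31 ± 0.08 (nip7, adjusted p = 0.022) to 0.66 ± 0.16 (rrp9, adjusted p = 0.018). In all 14 the memory arrays lay above the control arrays, as in 273 of the 279 probe sets called higher and in 18.4% of all genes. Abundant nucleolar genes that were not called stood on the same side, with ncl, the gene of nucleolin, at 0.22 ± 0.11 (adjusted p = 0.272) and npm1a, that of nucleophosmin, at 0.14 ± 0.08 (adjusted p = 0.357). The number called was 3 without control replicate 1, 8 without control replicate 2 or memory replicate 1, 7 without memory replicate 2 or 3 and 19 without control replicate 3, while the median stayed between 0.23 and 0.33. The median member lay at -0.22, -0.14 and -0.05 on the control replicates 1, 2 and 3 and at 0.14, 0.14 and 0.16 on the memory replicates. rpp14, a subunit gene of the RNase P and MRP complexes that lay outside the list, read 5.49, 5.63 and 5.72 against 6.16, 6.33 and 6.51 and differed by 0.72 ± 0.12 (adjusted p = 0.00203).

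Other gene groups of protein synthesis and of mitochondria had fewer calls. The 70 cytosolic ribosomal protein genes had 0 calls in either direction and a median of 0.03, and the 61 translation factors and tRNA synthetases had 0 calls and a median of 0.07. Of 90 genes of the mitochondrial ribosome and import, 4 were called higher and 0 lower, with a median of 0.15. They were mrps28 (0.52 ± 0.12), timm23a (0.47 ± 0.12), timm50 (0.40 ± 0.10) and mrpl15 (0.37 ± 0.09), with adjusted p values of 0.0151, 0.0239, 0.0262 and 0.0239. That count was 0 without control replicate 1 or memory replicate 2. The 91 genes of mitochondrial respiration had 0 calls and a median of 0.08. A positive difference was found for 92.2% of the genes of the mitochondrial ribosome and import and 84.6% of those of mitochondrial respiration. The share was 77.0% for translation factors and tRNA synthetases and 74.3% for cytosolic ribosomal proteins. It was 83.8% for splicing factors and hnRNPs and 80.6% for genes of the proteasome and ubiquitin. No difference between these lists was tested.

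**Figure D2:**
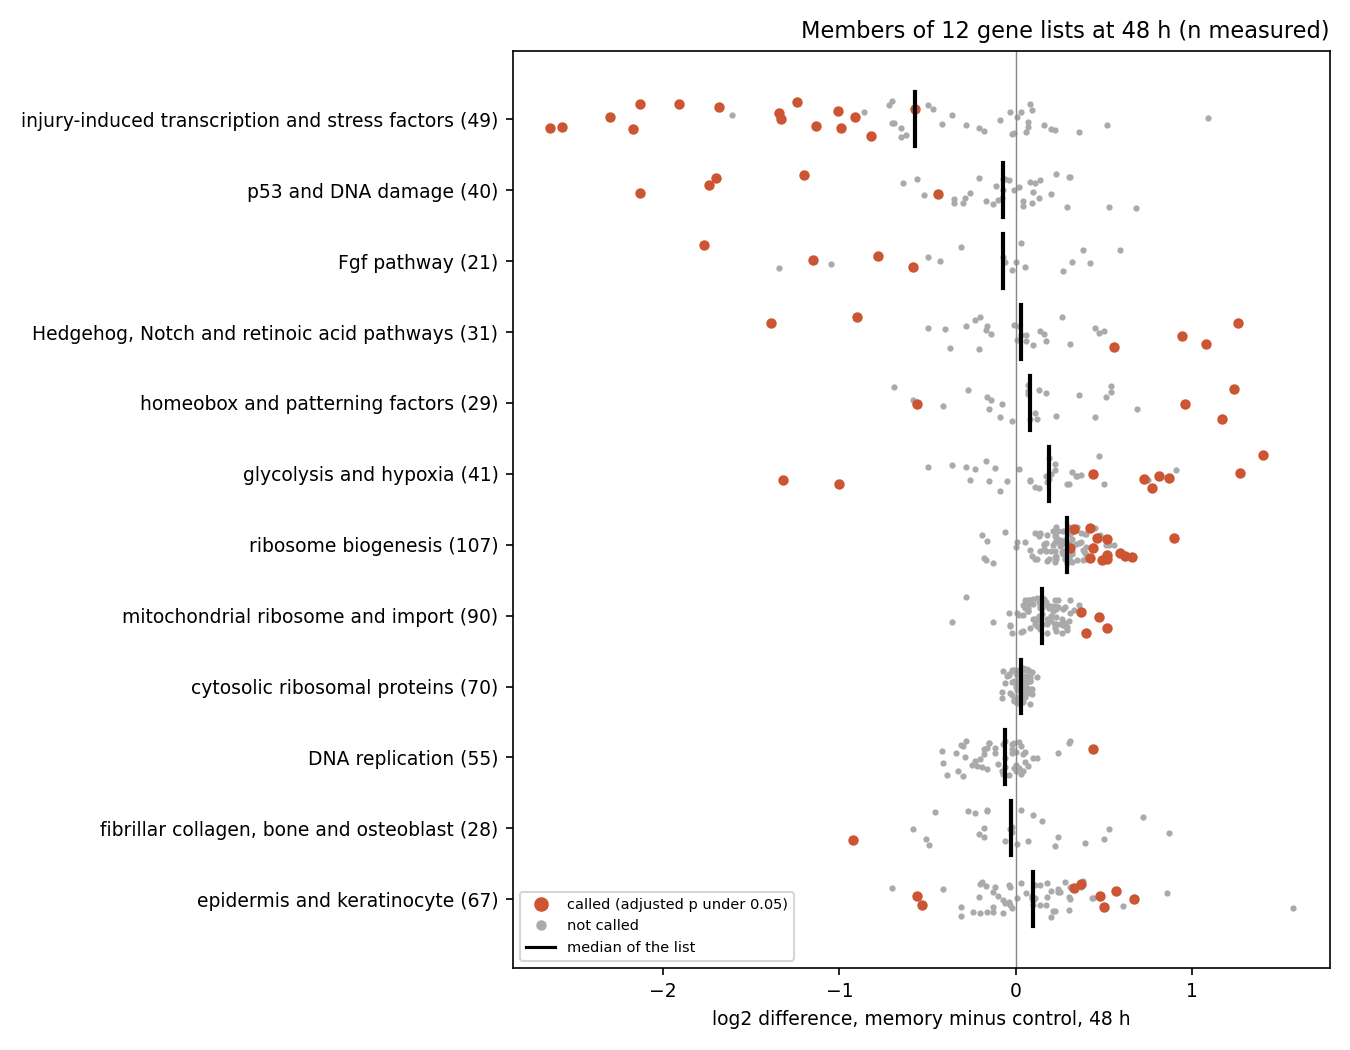
Log2 difference at 48 h, memory minus control, for each measured member of 12 gene lists, with 1 point per gene, red where called, and a black bar at the median of each list. The injury-induced factors reach from -2.64 upward with a median of -0.57, while the points for ribosome biogenesis cluster on the positive side with a median of 0.29.

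Of 24 glycolytic genes measured, 5 were called higher and 1 lower, with a median of 0.21. ldha, the lactate dehydrogenase gene at the end of the pathway, read 8.33, 8.19 and 8.34 in control and 9.04, 9.02 and 9.10 in memory fins. The arrays within each group were nearly equal and the difference was 0.77 ± 0.12 (adjusted p = 0.00136). pkma, a pyruvate kinase gene, read 9.91, 10.23 and 10.56 against 10.97, 10.94 and 10.97 (0.73 ± 0.14, adjusted p = 0.00626). eno1a, an enolase gene, read 8.46, 8.28 and 8.29 against 8.79, 8.75 and 8.83 (0.44 ± 0.09, adjusted p = 0.00687). These 3 calls held without any one array. The whole list of 41 genes of glycolysis and hypoxia had 3 calls higher without control replicate 1 and 4 without memory replicate 2.

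The regulators of the pathway differed in direction. pfkfb4b and pfkfb3 encode related enzymes that set the level of fructose 2,6-bisphosphate, an activator of glycolysis. pfkfb4b read 7.27, 7.66 and 8.47 in control and 8.74, 9.18 and 9.30 in memory fins, higher by 1.27 ± 0.27 (adjusted p = 0.00922, and 0.0651 without control replicate 1). pfkfb3 read 8.48, 9.09 and 8.94 against 8.07, 8.03 and 7.42, 2.00-fold lower with an SE of 0.24 on the log2 scale (adjusted p = 0.0173), and its second probe set differed by -1.56 ± 0.32 (adjusted p = 0.00743). The call of pfkfb3 was lost without control replicate 2 (adjusted p = 0.0915) or memory replicate 3 (0.0893). pdk2b, a kinase gene that restrains pyruvate dehydrogenase, differed by 0.87 ± 0.24 (adjusted p = 0.0369, a call that ended without any 1 of 4 arrays, with 0.185 without control replicate 1). Members not called included aldoaa at 0.22 ± 0.08 (adjusted p = 0.0999) and gapdhs at 0.13 ± 0.09 (adjusted p = 0.461).

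Of 17 genes of the hypoxia response 2 were called higher and 1 lower, with a median of -0.05. hif1al, a hypoxia-inducible factor alpha-like gene, read 6.61, 7.45 and 8.34 in control and 8.67, 9.03 and 8.92 in memory fins. The memory arrays were all above the control arrays, which spread widely, and the difference was 1.40 ± 0.32 (adjusted p = 0.0135, and 0.0886 and 0.0673 without control replicate 1 and memory replicate 2). ndrg1a, which is induced by hypoxia in zebrafish, differed by 0.81 ± 0.17 (adjusted p = 0.00975, and 0.0713 without control replicate 1). igfbp1a, whose product binds insulin-like growth factors and which is also induced by hypoxia in zebrafish, went the other way, with 11.26, 11.34 and 11.04 in control and 10.28, 9.86 and 9.55 in memory fins. It differed by -1.32 ± 0.28 (adjusted p = 0.00952, and 0.0515 without memory replicate 3), and its second probe set by -1.44 ± 0.30 (adjusted p = 0.00922). The other Igf binding protein gene called, igfbp5b, read 9.68, 9.54 and 9.56 against 9.95, 10.05 and 10.01, higher by 0.41 ± 0.08 (adjusted p = 0.00626).

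**Figure D3:**
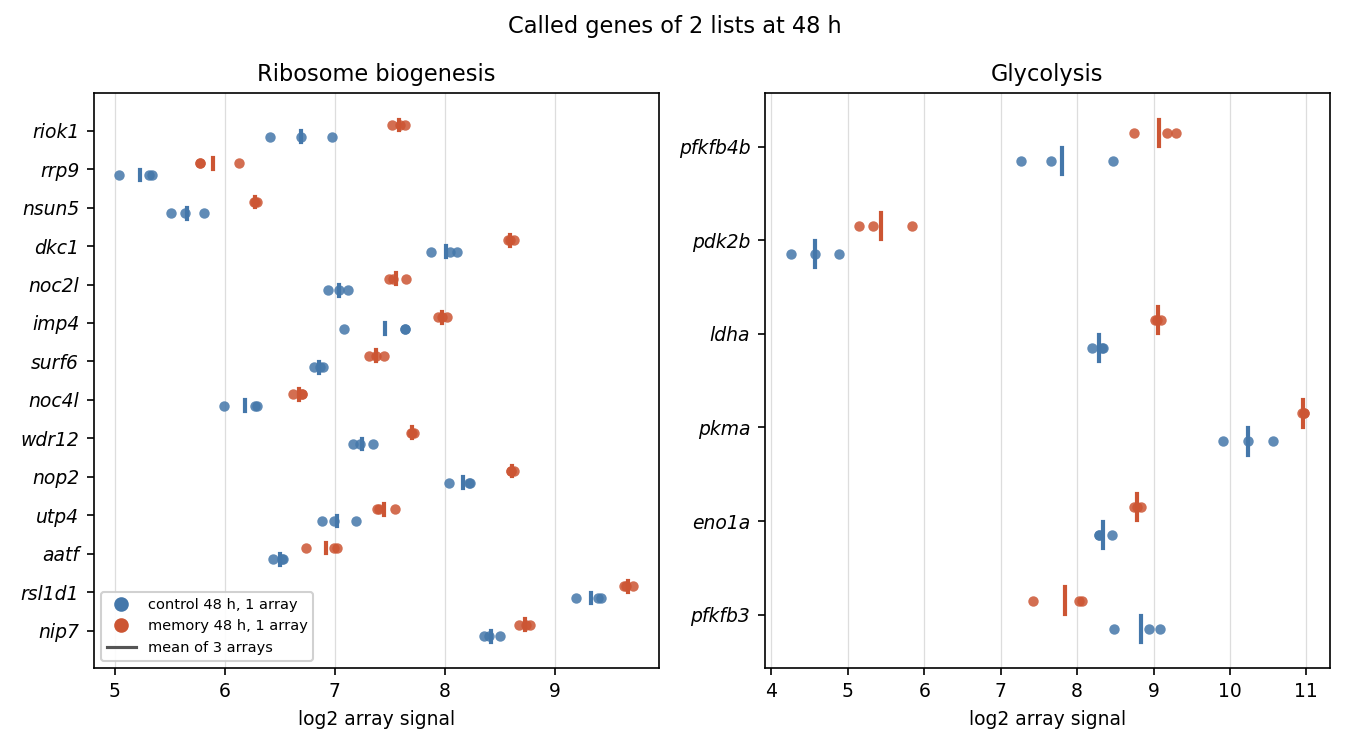
Log2 array signals at 48 h of the 14 called genes of ribosome biogenesis (left) and the 6 called genes of glycolysis (right), with 1 point per array and a bar at the mean of 3. Memory arrays lie above control arrays in each panel except for pfkfb3, where they lie below, at 7.42 to 8.07 against 8.48 to 9.09. The genes were chosen by their calls, and in 18.4% of all genes the memory arrays lay above the control arrays.

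The largest rise named was that of slc14a2, a urea transporter gene. It read 4.30, 4.06 and 6.28 in control and 6.95, 7.94 and 7.16 in memory fins. Control replicate 3 was far above the other control arrays and close to the memory arrays. The difference was 2.47 ± 0.51, 5.54-fold (adjusted p = 0.00879), with adjusted p values of 0.0536, 0.0554 and 0.0597 without control replicate 1, control replicate 2 and memory replicate 2. arhgap32a, which encodes a GTPase-activating protein, read 2.64, 2.80 and 2.66 against 4.11, 4.50 and 4.21. All control arrays were below 4 and all memory arrays a little above, with a fitted difference of 1.58 ± 0.20 (adjusted p = 0.000229) whose size is likewise uncertain. arhgap46a, of the same class, read 8.95, 8.83 and 8.78 against 9.40, 9.71 and 9.42 (0.66 ± 0.11, adjusted p = 0.00213).

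Further calls that outlasted the loss of any array had varied roles. zbtb16a, a zinc finger repressor gene, read 3.35, 2.79 and 2.93 in control and 3.96, 4.13 and 4.81 in memory fins, a difference of 1.27 ± 0.24 (adjusted p = 0.00437). All its control arrays and 1 memory array were below 4, so that the size of this difference is uncertain. bcl2l13, a mitochondrial Bcl-2-like gene, read 6.19, 6.55 and 6.81 against 7.46, 7.44 and 7.80 (1.05 ± 0.16, adjusted p = 0.00104), and its second probe set differed by 0.76 ± 0.17 (adjusted p = 0.013). hspa8b, a cytosolic Hsp70 chaperone gene, read 5.79, 6.04 and 5.96 against 7.32, 6.67 and 6.93 (1.04 ± 0.15, adjusted p = 0.000886). None of these groups overlapped. ptpn3, a tyrosine phosphatase gene, differed by 1.02 ± 0.17 (adjusted p = 0.00203), nccrp1, first known from fish cytotoxic cells, by 0.91 ± 0.15 (adjusted p = 0.00203) and itprip, whose product binds the inositol trisphosphate receptor, by 0.82 ± 0.14 (adjusted p = 0.00203). adam9a, a membrane-bound protease gene, was higher by 0.44 ± 0.09 (adjusted p = 0.00962).

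Lower in every such refit were also ca2, a carbonic anhydrase gene, with 13.35, 13.46 and 13.53 in control and 12.63, 12.69 and 12.88 in memory fins (-0.71 ± 0.10, adjusted p = 0.000621). stard14, of the lipid-binding START domain family, read 8.11, 8.26 and 8.16 against 6.98, 6.95 and 6.63 (-1.32 ± 0.21, adjusted p = 0.00134). Both genes kept the groups well apart. angpt2b, an angiopoietin gene of vessel remodelling, differed by -0.74 ± 0.14 (adjusted p = 0.00505) and was 1 of 2 calls, both lower, among 18 endothelial genes. The long non-coding RNA linc.pou2af1 read 6.05, 5.29 and 4.43 in control and 3.16, 3.50 and 3.70 in memory fins, a difference of -1.81 ± 0.28 (adjusted p = 0.00134).

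Epidermal junction and envelope genes gave 6 calls higher and 2 lower of 54, with a median of 0.16. The desmosomal and envelope genes dsc2l (0.67 ± 0.16, adjusted p = 0.0213), evpla (0.57 ± 0.16, adjusted p = 0.0471), ppl (0.48 ± 0.11, adjusted p = 0.0149) and dspa (0.37 ± 0.10, adjusted p = 0.0393) were higher, with tp63, the p63 regulator of basal epidermis (0.50 ± 0.13, adjusted p = 0.0273), and ahnak (0.33 ± 0.09, adjusted p = 0.0284). anxa1b (-0.53 ± 0.11, adjusted p = 0.0108) and grhl1 (-0.56 ± 0.13, adjusted p = 0.0139) were lower. All 6 higher calls ended without control replicate 1, control replicate 2 or memory replicate 2, and 4 of them without memory replicate 3. The arrays of evpla and dsc2l overlapped between the groups. The call of dspa also ended with the mean of its probe sets (adjusted p = 0.0743).

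Many groups tied to outgrowth showed few or no calls. Of 55 genes of DNA replication, 1 was called higher and 0 lower, with a median of -0.06, and pcna, the sliding clamp of the replication fork, stood at -0.01 ± 0.10 (adjusted p = 0.97). The 58 mitosis genes had 1 call each way and a median of -0.07. A positive difference was found for 17 of the replication genes (30.9%) and 20 of the mitosis genes (34.5%), against 55.1% of all genes. Among 28 genes of fibrillar collagen and bone, 1 was called lower, the factor runx3 (-0.92 ± 0.26, adjusted p = 0.0427, a call that ended without any 1 of 5 arrays), and col1a2 stood at -0.46 ± 0.15 (adjusted p = 0.0722). The blastema and wound epidermis list gave 3 calls higher and 1 lower of 39. Circadian clock genes gave 0 calls of 26, pigment cell genes 0 of 12 and nerve and Schwann cell genes 0 of 24. A set of 16 genes of DNA methylation and demethylation gave 1 call, gadd45ba, named above, and the 42 antioxidant genes 2, both lower, cat, the catalase gene (-0.57 ± 0.13, adjusted p = 0.0151), and nqo1 (-0.59 ± 0.16, adjusted p = 0.0346). The call of cat ended without any 1 of 3 arrays, and that of nqo1 on leaving out any 1 of the 6 arrays or with no filter (0.0506). Shares of 2.82% higher and 2.71% lower among all genes stand beside these counts, and a gene that was not called is not shown to be equal in the groups.

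The differences at 48 h were set against those on other arrays at the earlier times. At 0 h, before regrowth, 560 probe sets (5.52%) were called between memory and control in either direction. The number was 3666 (36.2%) at 12 h and 343 (3.38%) at 24 h. Of the 279 probe sets higher at 48 h, 249 (89.2%) had a positive difference at 24 h, 227 (81.4%) at 12 h and 131 (47.0%) at 0 h. Of the 298 that were lower, 282 (94.6%) had a negative difference at 24 h, 207 (69.5%) at 12 h and 155 (52.0%) at 0 h. Over all probe sets a positive difference was found for 48.0%, 48.3% and 51.1% at 24, 12 and 0 h. Across 10140 probe sets, which are not independent of each other, the difference at 48 h correlated with that at 24 h at r = 0.548, with that at 12 h at 0.330 and with that at 0 h at 0.0389.

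A minority of these differences passed the test at 24 h. Of the 279, 35 (12.5%) were also called higher there, and of the 298, 67 (22.5%) were called lower. For comparison, the 24 h test gave 150 higher and 193 lower calls among the 10140 probe sets. At 12 h, 128 of the 279 were called higher and 9 lower, and 100 of the 298 were called lower and 22 higher. The 12 h test gave 1569 higher and 2097 lower calls in total. klf4 already differed by -2.09 at 24 h (adjusted p = 0.0176), ccng2 by -1.18 (adjusted p = 0.00693), klf2a by -1.16 (adjusted p = 0.0196), id2b by -1.56 (adjusted p = 0.0165), btg2 by -1.67 (adjusted p = 0.0305) and irg1l by -4.62 (adjusted p = 0.00535). At that time atf3 stood at -0.03 (adjusted p = 0.989) and wnt11 at -0.09 (adjusted p = 0.867). The direct test given below called neither change from 24 to 48 h. hspa8b had been lower in memory fins at 12 h by 1.64 (-1.64, adjusted p = 1.58e-07) and was higher at 24 h by 0.80 (adjusted p = 0.00972).

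A direct test of the 48 h difference against that at 24 h called 4 probe sets (0.0394%), 2 in each direction, and 764 had an unadjusted p under 0.05. The 2 higher were arhgap32a, whose difference changed by 2.00 (adjusted p = 0.00349), and fosl1b, by 1.28 (adjusted p = 0.0143). Both had higher means at 12 and 24 h than at 0 or 48 h in either arm. arhgap32a went from 6.78 at 24 h to 2.70 at 48 h in control fins and from 6.36 to 4.28 in memory fins. Its 24 h difference of -0.42 is part of the change of 2.00, and the dim 48 h control levels of both genes make the sizes uncertain. The 2 lower probe sets carried no single gene symbol. The number called depended on single arrays. It was 8 higher and 6 lower without control replicate 3 at 48 h, and 1 and 1 without control replicate 1 at 48 h or memory replicate 1 or 3 at 24 h. Without control replicates 1, 2 and 3 at 24 h it was 5 and 2, 4 and 1, and 2 and 4, and without memory replicate 2 at 48 h 3 and 1.

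**Figure D4:**
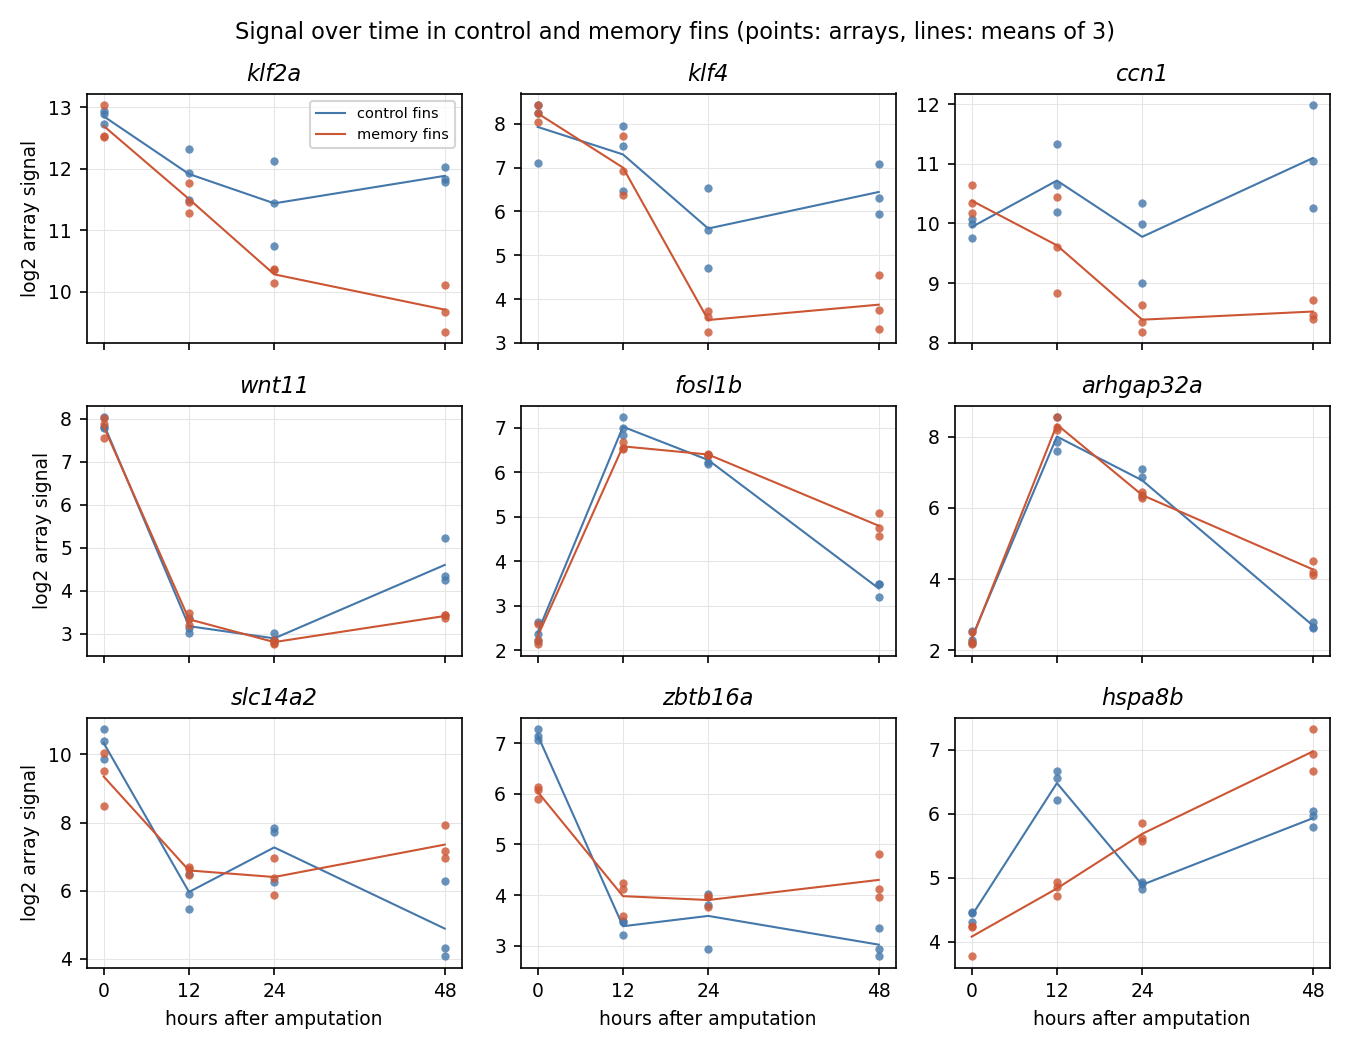
Log2 array signals at 0, 12, 24 and 48 h after amputation for 9 genes called at 48 h, with 1 point per array and a line through the means of 3 (control in blue, memory in red). klf2a and klf4 were called lower in memory fins at 24 h as well as at 48 h. ccn1 and wnt11 were called at 48 h but not at 24 h, and the direct test between these times called neither. fosl1b and arhgap32a decline from 24 to 48 h further in control than in memory fins.

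Against 0 h the difference of differences was called for 444 probe sets (4.38%), 206 with a higher and 238 with a lower memory effect at 48 h. klf2a changed by -2.01 ± 0.37 (adjusted p = 0.00667). ccn1 changed by -3.02 ± 0.57 (adjusted p = 0.007) and id2b by -2.48 ± 0.48 (adjusted p = 0.00789). zbtb16a had been lower in memory fins before regrowth, at 6.03 against 7.15 (-1.12, adjusted p = 0.008), and was higher at 48 h, a change of 2.39 ± 0.34 (adjusted p = 0.00098). The size of that change is uncertain, since the 48 h control arrays of zbtb16a were all below a log2 signal of 4. cyp26a1 went the opposite way, from 0.81 (adjusted p = 0.039) at 0 h to -0.90 at 48 h, a change of -1.71 ± 0.32 (adjusted p = 0.007). Leaving out 1 array moved the counts to 76 and 118 without control replicate 1, 97 and 109 without control replicate 2, 84 and 107 without memory replicate 2 and 121 and 142 without memory replicate 3, all at 48 h, and to 137 and 166 without control replicate 2 at 0 h.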

How the data were processed

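Biotin-labelled cRNA from total RNA of caudal fins was hybridised to 24 Affymetrix zebrafish arrays, 1 per sample, per the labels. The authors deposited 1 log2 signal for each probe set and array. The submitters' processing notes name Partek and GCRMA, a method that corrects background by probe sequence, normalises arrays by quantiles and summarises probes, and that pulls weak signals towards a common floor. The versions are not given in the sources used here. No detection call or scan time was used.

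Groups came from the sample titles. After 115 array controls were left out of 15617 probe sets, those with a log2 value of 4 or more on 3 or more arrays were tested (10140, with 5362 left out). Symbols came from the platform annotation. For 10710 probe sets with 1 symbol it was already the current one, and for 1 it was updated through the gene identifier. A gene was represented by its probe set with the highest mean over 24 arrays, which left 6451 genes, 918 of them with more than 1 probe set. The 24 arrays entered a single limma fit of group means (limma 3.58.1, R 4.3.3, eBayes without trend). A call needed a Benjamini-Hochberg adjusted p under 0.05 over 10140 probe sets, and the difference at 48 h was also tested against those at 0 and 24 h. The method was tested on simulated data.

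The named genes were, by rule, the 20 largest rises and falls among called genes whose arrays did not overlap, those with the smallest adjusted p, those with the largest differences between times, and on each gene list the called members and up to 6 others of highest signal. More genes fit the rule than the text names, and preference went to calls kept without any one array. Members, gene lists and rule were chosen with earlier results of these data known. Some genes are on more than 1 list. Alternatives were no filter, a filter at 6, trend and robust estimation, centring on the median, a second quantile normalisation, replicate number as a block, only the groups compared, a 2-fold threshold, the mean of a gene's probe sets, array weights and leaving out each array, where the array left alone with 1 other is assumed to vary like the other groups.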

Additional observations from a re-analysis of the deposited data

Results flagged for a closer look

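This count covers 109 genes named in the Results. It leaves out klf3, klf6a, klf9, klf11a and the genes given only as markers of cell types. For 48 of the 109 the difference between memory and control fins at 48 h itself differed from that at 0 h. The difference of the differences had an adjusted p under 0.05 (limma), 22 in the higher and 26 in the lower direction. Over all probe sets 444 of 10140 (4.38%) were so called. The naming rule took genes partly by their 48 h difference and partly by this same contrast. The share among the named genes was thus in part set by their choice. Values are the 48 h difference minus the 0 h difference on the log2 scale. Among early response and growth arrest genes it was -3.82 for jdp2b, -3.36 for nr4a1, -3.02 for ccn1, -2.88 for klf4, -2.31 for plk2b, -2.01 for klf2a, -1.88 for ccn2a, -1.74 for cebpd, -1.63 for cebpb, -1.53 for klf2b, -1.51 for ccng2, -1.46 for plk3, -0.92 for relb and -0.71 for mcl1b. Among genes of signals, vessels and patterning it was -2.50 for jag1a, -2.48 for id2b, -1.71 for cyp26a1, -1.37 for fgfr3, -1.13 for wnt11, -0.93 for angpt2b, -0.90 for bmper, -0.71 for snai1a and 1.97 for hey1. Of other genes with a lower effect, igfbp1a stood at -1.79, stard14 at -1.41, tsc22d3 at -0.95 and ca2 at -0.76.

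The change was upward for slc14a2 at 3.46, zbtb16a at 2.39, hif1al at 1.80, arhgap32a at 1.62, pdk2b at 1.50, fosl1b at 1.49, ptpn3 at 1.39, hspa8b at 1.37, bcl2l13 at 1.27, arhgap46a at 1.13, nccrp1 at 0.88, itprip at 0.71 and adam9a at 0.66. It was also upward for the ribosome and mitochondrial genes riok1 at 1.45, utp4 at 0.84, aatf at 0.60, mrpl15 at 0.57 and rsl1d1 at 0.55, and for the epidermal genes dsc2l at 0.96, evpla at 0.94 and tp63 at 0.66. Against 24 h the difference changed for arhgap32a by 2.00 and for fosl1b by 1.28. Groups of 3 arrays are too small for the check on single far-off samples that was set, so none was run.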

How the results depend on the processing

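Of the counts at 48 h, array weights gave 1013 higher and 904 lower in place of 279 and 298, and an added 2-fold threshold gave 41 and 78. Leaving out 1 array gave 68 to 333 higher and 110 to 315 lower. For the 48 h difference minus that at 0 h (206 higher, 238 lower), array weights gave 390 and 508, the 2-fold threshold 66 and 99, and leaving out 1 array 76 to 234 and 107 to 253. For the difference minus that at 24 h (2 and 2), array weights gave 51 higher and 56 lower, no filter 9 and 6, the stricter filter 4 and 1, a fit on only the groups compared 1 and 0, and leaving out 1 array 1 to 8 and 1 to 6. The lower count was 4 with each array centred on its median, with quantile normalisation once more, with intensity trend and robust estimation, and with the mean of a gene's probe sets.

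The replicate number as a block (replicate block) gave 370 higher and 376 lower at 48 h, 265 and 295 against 0 h and 2 higher against 24 h. Same-numbered arrays of the 2 arms deviated with correlations of -0.170 to -0.0440 at 48 h, so the numbers were not taken to pair samples. No named gene that was called in the main fit or in an alternative changed direction between the 2. Genes called in neither were not checked for this. Besides that of aldh1a2, a limma fit on only the groups compared ended other calls of named genes. Among them were atf3 (adjusted p = 0.0643), dusp1 (0.0627), klf2b (0.0804), hif1al (0.0761), dsc2l (0.129) and tp63 (0.0916). The 17 higher and 15 lower calls kept without any one array were also kept in this fit. The weakest support lies with calls that end without control replicate 1 or memory replicate 2, and 3 arrays per group limit the precision. The cause of these shifts was not tested.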

Other observations

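Other lists held scattered calls at 48 h, beside which stand shares of 2.82% higher and 2.71% lower among all genes. Of 68 splicing factors and hnRNPs 3 were called higher and 0 lower, with a median of 0.11, among them hnrnpd, an RNA-binding protein gene, at 0.46 ± 0.10 (adjusted p = 0.0123) and srsf5a at 0.50 ± 0.13 (adjusted p = 0.0311). Of 62 genes of the endoplasmic reticulum 3 were called lower and 0 higher, with herpud1, which is induced by unfolded proteins in mammals, at -0.70 ± 0.17 (adjusted p = 0.021). Growth factor genes were split. The receptor gene met was higher by 0.94 ± 0.20 (adjusted p = 0.00859), while the ligand gene hbegfa stood at -0.79 ± 0.21 (adjusted p = 0.031) and the kinase gene pim3 at -0.90 ± 0.24 (adjusted p = 0.0284). Of the 69 histone and chromatin genes 2 were called higher, ing3 (0.72 ± 0.18, adjusted p = 0.024) and hdac9b (0.63 ± 0.18, adjusted p = 0.0427). The matrix protease gene mmp9 was higher by 0.45 ± 0.13 (adjusted p = 0.0436). Every call given here ended on leaving out 1 array or another. This held for any 1 of the 6 arrays for mmp9, 5 for srsf5a, pim3 and hdac9b, 4 for herpud1, hbegfa and ing3, 2 for hnrnpd and 1 for met (adjusted p = 0.0503 without control replicate 1). The call of hnrnpd also ended with the mean of its probe sets (0.119).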
